A study of Mus musculus with 9 samples.

Results

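The lysosome and cathepsin genes were described in mouse lung as a group of 37 genes, chosen by gene symbol with earlier results of these arrays known. Of these genes, 36 had a probe set of their own among the 8251 genes with a single symbol on the array, and Atp6v0c was not analysed here. They account for 56 of 12488 probe sets. The data are 9 Affymetrix arrays of lung total RNA from C57BL6 mice, 3 in each of 3 groups of an asthma model induced with ovalbumin (OVA, an egg-white protein used as allergen). The saline group was challenged with saline, the OVA group with OVA, and the agonist group with OVA while treated with an agonist of EP3, a receptor for prostaglandin E2. Sample titles of both OVA groups carry 24 h, and no genotype other than the strain is named for any group. The sources used here do not give the agonist's name, dose or timing, the mice's age or the sensitization schedule. Arrays are called by group and by the number in their titles, such as agonist array 3.

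Lysosomes are acidic organelles in which proteins, glycans and lipids taken up by endocytosis, phagocytosis or autophagy are degraded. The vacuolar ATPase pumps protons into them, cathepsins and legumain cut proteins, glycosidases and lipases take apart glycans and lipids, and heavily glycosylated membrane proteins line the inner surface. Macrophages and dendritic cells are rich in lysosomes and use some of the proteases to prepare antigens for presentation, and airway epithelium and alveolar type 2 cells hold lysosomes and lysosome-related organelles too. Many lysosomal genes carry a CACGTG core in their promoters, which transcription factors of the TFEB family bind, while the GAGGAA core is bound by PU.1, a factor of the myeloid lineage.

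Promoters of 4 genes are shown so that their letters can be set beside the values that follow. Each line gives 250 bases before the start site from RefSeq (GRCm38.p6), read 5′ to 3′ on the gene's strand, with CACGTG and with GAGGAA or its reverse complement in capitals. Ctsk and Ctss are protease genes that rose, and Ctsd and Lamp1 encode a protease and a membrane protein that did not pass the test. These are examples and do not stand for the group. Ctsa rose too, and a promoter of it held CACGTG and no GAGGAA.
Ctsk (chr3:95498960-95499209, plus strand): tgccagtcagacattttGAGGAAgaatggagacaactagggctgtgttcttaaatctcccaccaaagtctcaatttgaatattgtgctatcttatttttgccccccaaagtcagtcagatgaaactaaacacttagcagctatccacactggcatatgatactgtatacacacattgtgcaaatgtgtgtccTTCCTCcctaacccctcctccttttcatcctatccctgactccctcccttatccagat
Ctss (chr3:95526536-95526785, plus strand): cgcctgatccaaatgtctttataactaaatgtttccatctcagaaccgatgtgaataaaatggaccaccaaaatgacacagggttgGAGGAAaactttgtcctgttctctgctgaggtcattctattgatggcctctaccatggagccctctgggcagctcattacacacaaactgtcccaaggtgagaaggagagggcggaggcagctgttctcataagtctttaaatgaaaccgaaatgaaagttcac
Ctsd (chr7:142387828-142388077, minus strand): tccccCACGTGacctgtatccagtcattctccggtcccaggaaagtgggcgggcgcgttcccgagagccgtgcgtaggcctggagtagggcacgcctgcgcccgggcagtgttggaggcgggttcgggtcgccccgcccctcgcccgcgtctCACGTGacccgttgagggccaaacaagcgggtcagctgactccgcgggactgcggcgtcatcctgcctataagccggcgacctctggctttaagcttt
Lamp1 (chr8:13158911-13159160, plus strand): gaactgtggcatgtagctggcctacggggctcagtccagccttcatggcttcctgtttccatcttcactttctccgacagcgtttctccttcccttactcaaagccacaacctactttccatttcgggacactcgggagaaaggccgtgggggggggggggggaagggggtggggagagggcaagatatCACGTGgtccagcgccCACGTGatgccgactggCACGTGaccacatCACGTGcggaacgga

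Ctsk and Ctss lie close together on chromosome 3, on the same strand with starts 27.6 kb apart. The Ctsk promoter held 2 GAGGAA matches and that of Ctss 1, and neither held CACGTG. The Lamp1 promoter held 4 CACGTG matches and that of Ctsd 2, with no GAGGAA in either. Of the 37 genes, 32 had a promoter in the RefSeq table, where the window runs from 250 bases before the start to 50 after. CACGTG, which is its own reverse complement, was found in 9 of these 32 (28.1%), against 7.15% of 32851 promoters in the table. It was in 2 of the 12 genes that rose and have a promoter (Ctsa and Lgmn) and in 5 of the 16 tested genes that did not pass (Atp6v1a, Ctsd, Ctsl, Gaa and Lamp1). GAGGAA on either strand was found in 15 of the 32 genes (46.9%) and in 28.3% of all promoters. It was present in 7 of the 12 that rose (Cd63, Cd68, Ctsk, Ctss, Gusb, Laptm5 and Psap). Among the 16 that did not pass it was in 6 (Ctsc, Gm2a, Grn, Lamp2, Lipa and Man2b1). A member gene counted as a match if any of its promoters in the table matched, while the share over all counts each promoter singly. The members' shares and those of all promoters are therefore unlike measures. These matches describe letters in the window and were not tested between the genes.

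In OVA-challenged lungs, protease genes Ctsk, Ctsz and Ctss, the membrane protein gene Cd68 and the lectin gene Lgals3 rose by 2.24- to 2.92-fold. The proton pump genes among the members (Atp6v1a and Atp6ap1), Lamp1, Lamp2 and Ctsd did not pass, with log2 changes between -0.11 and 0.11. Intensity was scaled to a common array level, and testing needed values above a detection limit of 44.7 on 3 or more of the 9 arrays. This held for 46 of the 56 probe sets, from 33 genes, and left Glb1, Gla and Ppt1 untested. Of the 46, 15 probe sets from 14 genes rose (limma, adjusted p under 0.05 over all 7920 probe sets tested), 0 fell and 31 did not pass. Over the whole array 5.08% of tested probe sets rose, 4.42% fell and 9.49% passed either way, against 32.6% of the members in the upward direction. The members' median log2 change was 0.26, against -0.08 over all tested probe sets, and 24 of the 46 had an unadjusted p under 0.05. Because the genes were listed with results of these arrays known, the member count is a description and supports nothing. Groups did not overlap for 26 of the 46 probe sets, 23 of them higher in OVA and 3 lower. Over the array this held for 37.6% of probe sets, 15.5% higher and 22.0% lower.

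**Figure D1:**
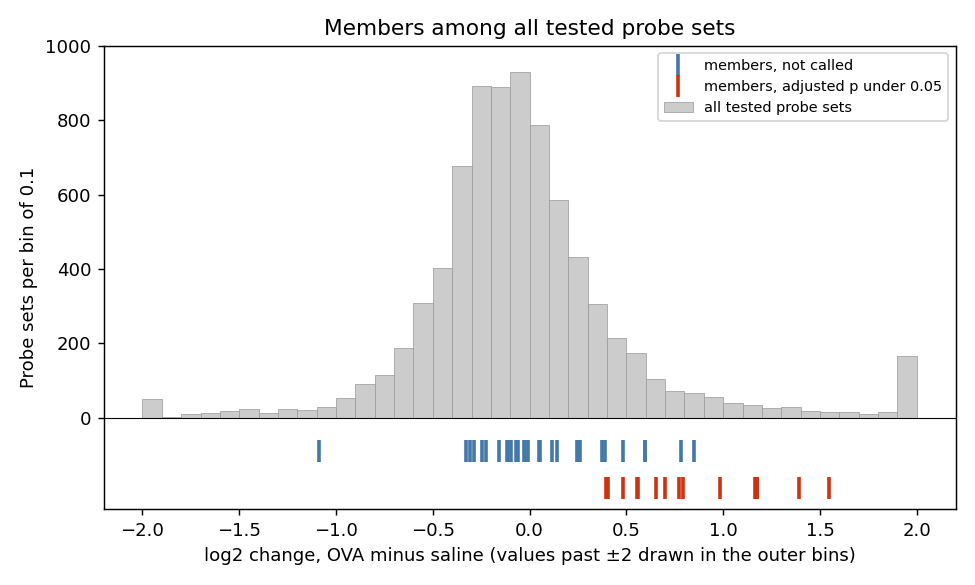
Histogram of the log2 change between OVA and saline arrays over the 7920 probe sets tested (x axis, log2 units; y axis, number of probe sets), with a tick for each of the 46 lysosome and cathepsin probe sets. The members' median lies at 0.26 and that of all tested probe sets at -0.08.

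The number that passed depended on single arrays. Leaving out saline array 1, 2 or 3 left 3 of the 15 each time (Ctsk, Ctsz and Lgals3), and leaving out OVA array 1 or 2 left 2 (Ctsz and Lgals3), while 12 passed without OVA array 3. The count over the whole array fell with it, from 752 to 151, 134 and 126 without saline arrays 1 to 3, and to 104, 139 and 623 without OVA arrays 1 to 3. Without agonist array 1, 2 or 3, which enter through the shared estimate of spread, 15, 12 and 14 members passed, and 684, 496 and 857 probe sets over the array. Ctsz and Lgals3 passed under each of these 9 omissions, with adjusted p up to 0.042. The labels do not say that the 3 arrays of a group came from separate mice, so the p-values measure the spread between these samples, which may be technical.

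Cysteine cathepsins and legumain gave 5 of 12 tested probe sets that rose. Ctsk, which encodes the collagen-degrading protease cathepsin K of osteoclasts and some macrophages, had scaled intensities of 146, 179 and 97.6 on the saline arrays, 368, 474 and 365 on the OVA arrays and 184, 197 and 251 on the agonist arrays (arrays 1 to 3 in order, as throughout). All OVA arrays lay above all others, and agonist array 3 was the highest of its group. The rise after OVA was 1.55 ± 0.24 log2 units (SE, n = 3 arrays a group), or 2.92-fold (limma, adjusted p = 0.015). Ctss encodes cathepsin S, which trims the invariant chain of MHC class II in antigen-presenting cells. Its intensities were 1311, 1235 and 1217 on the saline arrays, 2711, 3041 and 2696 on the OVA arrays and 1269, 1455 and 2209.5 on the agonist arrays. OVA arrays again lay apart from the rest, while agonist arrays 1 and 2 sat near saline and array 3 between. Ctss rose by 1.17 ± 0.19 log2 units, 2.24-fold (limma, adjusted p = 0.0185).

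Ctsz, encoding the carboxypeptidase cathepsin Z, read 257, 258 and 268 on the saline arrays, 558, 663 and 554 on the OVA arrays and 300.1, 327 and 413 on the agonist arrays. The 3 groups did not overlap, with the agonist arrays between saline and OVA. It rose by 1.18 ± 0.14 log2 units, 2.26-fold (limma, adjusted p = 0.00912), the smallest adjusted p among the members. Lgmn encodes legumain, an asparagine-specific protease that also processes cathepsins to their mature forms. It read 167, 211 and 208 on the saline arrays, 469, 387 and 311 on the OVA arrays and 254, 218 and 269 on the agonist arrays, with every OVA array above every other array, and rose 1.98-fold (limma, 0.98 ± 0.17 log2 units, adjusted p = 0.0221). Ctsb, encoding the abundant endo- and exopeptidase cathepsin B, has 4 probe sets. The one that rose (94831_at) read 1424, 1429 and 1415 on the saline arrays, 2326, 2461 and 1966 on the OVA arrays and 1506, 1603 and 1914 on the agonist arrays, and changed by 0.66 ± 0.12 log2 units, 1.57-fold (limma, adjusted p = 0.0239). The saline arrays were nearly equal and all OVA arrays higher, with agonist array 3 close to OVA array 3. The other 2 tested Ctsb probe sets changed by -0.06 and 0.48 log2 units (limma, adjusted p = 0.656 and 0.121), and 1 was not tested, so the rise rests on 1 of 3 tested probe sets.

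The other cysteine proteases did not pass. Ctsc, whose product cathepsin C activates granule serine proteases, has 3 tested probe sets with changes of 0.39, 0.60 and 0.26 log2 units (limma, adjusted p = 0.12, 0.052 and 0.599). Ctsh, an aminopeptidase that takes part in processing surfactant protein in alveolar type 2 cells, changed by 0.25 ± 0.12 (adjusted p = 0.198). Ctsl, encoding the endopeptidase cathepsin L, was lower on all OVA arrays than on all saline arrays, at -0.33 ± 0.13 log2 units, but did not pass (adjusted p = 0.137). The direction of Ctsl was thus opposite to that of Ctsk, Ctss and Ctsz, while its own call was not made.

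Of the aspartic and serine cathepsins, 2 of 4 tested probe sets rose. Ctsa encodes cathepsin A, a serine carboxypeptidase that also protects β-galactosidase and neuraminidase in a complex. It read 251, 222 and 228 on the saline arrays, 342, 314 and 324 on the OVA arrays and 329, 253 and 305 on the agonist arrays, and rose by 0.48 ± 0.12 log2 units, 1.40-fold (limma, adjusted p = 0.0417). OVA and saline arrays did not overlap, and agonist array 1 lay within the OVA range. Ctse encodes cathepsin E, an aspartic protease of endosomes. Probe set 93860_i_at read 446, 404 and 504 on the saline arrays, 812, 948 and 585 on the OVA arrays and 563, 431 and 461 on the agonist arrays, with OVA arrays 1 and 2 well above OVA array 3, and rose by 0.77 ± 0.19 log2 units, 1.71-fold (limma, adjusted p = 0.0482). A Ctse probe set that did not pass, 93861_f_at, changed by 0.85 (adjusted p = 0.0535), and 1 more was not tested. Ctsd, encoding the main lysosomal aspartic protease cathepsin D, changed by -0.11 log2 units with a 95% interval of -0.30 to 0.07 (adjusted p = 0.382). Its OVA arrays lay below its saline arrays, at 1733, 1775 and 1784 against 1873, 1989 and 1870.2, and its agonist arrays lay above both, at 2148, 2032 and 2314.

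**Figure D2:**
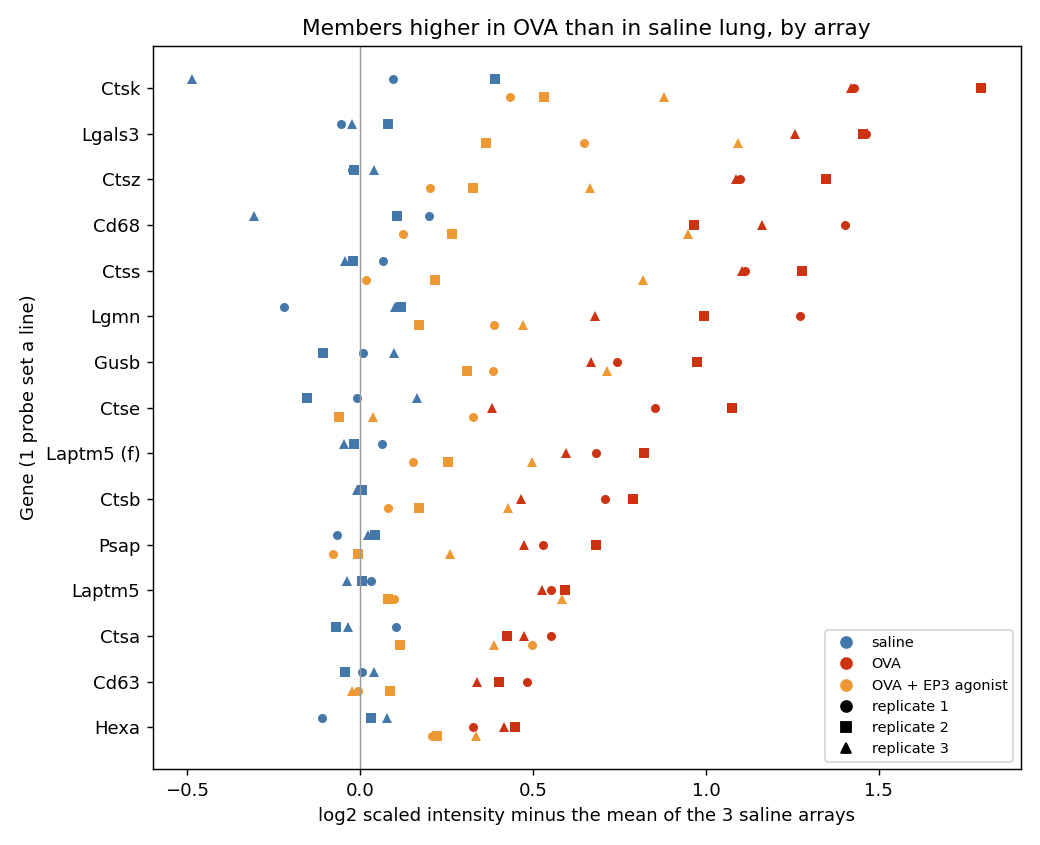
Each of the 15 probe sets that rose after OVA on each of the 9 arrays, as log2 intensity minus the mean of the saline arrays (x axis, log2 units; 1 row a probe set). Colours mark saline (blue), OVA (red) and agonist (orange), and circle, square and triangle mark arrays 1, 2 and 3; agonist array 3 is the highest agonist array in 12 of the 15 rows.

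Membrane proteins gave 4 of 9 tested probe sets that rose, from 3 of 7 genes. Cd68 encodes macrosialin, a glycoprotein of late endosomes and lysosomes used as a macrophage marker. It read 211, 198 and 149 on the saline arrays, 485, 359 and 411 on the OVA arrays and 200.1, 221 and 354 on the agonist arrays, and rose by 1.18 ± 0.24 log2 units, 2.26-fold (limma, adjusted p = 0.0296). Agonist arrays 1 and 2 lay at the saline level, and array 3 just below the lowest OVA array. These values are of probe set 103016_s_at, and the other Cd68 probe set, 162173_i_at, was not above the limit on any array and was not tested. Cd63, a tetraspanin of late endosomes and secretory granules, read 1202, 1161 and 1229 on the saline arrays, 1671, 1581 and 1513 on the OVA arrays and 1191, 1269.5 and 1178 on the agonist arrays. All OVA arrays were above all others, and the agonist arrays overlapped with saline. It rose by 0.41 ± 0.08 log2 units, 1.33-fold (limma, adjusted p = 0.026).

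Laptm5, a lysosomal transmembrane protein of blood cells, rose in both of its probe sets. Probe set 161819_f_at read 649, 614 and 602 on the saline arrays, 996, 1097 and 939 on the OVA arrays and 690.4, 740.2 and 877 on the agonist arrays, and rose 1.62-fold (limma, 0.70 ± 0.11 log2 units, adjusted p = 0.0174). Probe set 100012_at read 1066, 1046 and 1016 on the saline arrays, 1527, 1571 and 1501 on the OVA arrays and 1116, 1103 and 1563 on the agonist arrays, and rose 1.47-fold (limma, 0.56 ± 0.14 log2 units, adjusted p = 0.0459). In both, agonist arrays 1 and 2 were near saline and agonist array 3 was high, within the OVA range in 100012_at. The structural membrane glycoproteins did not pass. Lamp1 changed by -0.07 log2 units with a 95% interval of -0.24 to 0.11, and the Lamp2 probe sets by 0.11 and -0.07. Scarb2, the receptor that carries β-glucocerebrosidase to lysosomes, changed by -0.01, and Npc1, the cholesterol exporter of the lysosomal membrane, by -0.16.

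Glycosidases differed among themselves. Gusb, encoding β-glucuronidase, read 183, 169 and 195 on the saline arrays, 305, 358 and 289 on the OVA arrays and 238, 226 and 299 on the agonist arrays, and rose by 0.79 ± 0.14 log2 units, 1.73-fold (limma, adjusted p = 0.02). Hexa, the α subunit of β-hexosaminidase, read 215, 237 and 245 on the saline arrays, 291, 317 and 310.04 on the OVA arrays and 268, 271 and 293 on the agonist arrays, and rose by 0.40 ± 0.09 log2 units, 1.32-fold (limma, adjusted p = 0.0346). For both genes every OVA array exceeded every saline array in these values, and agonist array 3 reached the OVA range. A further Hexa probe set, 162488_at, was not above the limit on any array and was not tested. Gaa, encoding the acid α-glucosidase that degrades glycogen, went the other way without passing. Its intensities were 319, 389 and 452 on the saline arrays, 212, 264 and 105 on the OVA arrays and 318, 383 and 427 on the agonist arrays. OVA arrays were all below the rest, OVA array 3 the lowest, with a change of -1.09 ± 0.33 log2 units (limma, adjusted p = 0.0768). Man2b1, the lysosomal α-mannosidase, changed by 0.14 and 0.24 in its tested probe sets and did not pass.

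Among lipid hydrolases and lipid-binding cofactors, 1 of 7 tested probe sets rose. Psap encodes prosaposin, the precursor of the saposins that present sphingolipids to their hydrolases. Probe set 97114_at read 1575, 1699 and 1674 on the saline arrays, 2378, 2645 and 2290.5 on the OVA arrays and 1562, 1643 and 1972 on the agonist arrays, and rose by 0.56 ± 0.11 log2 units, 1.48-fold (limma, adjusted p = 0.0278). OVA stood apart from both other groups, which overlapped. The 2 other Psap probe sets, 161476_at and 97560_at, changed by -0.10 and -0.31 (limma, adjusted p = 0.811 and 0.424), so the probe sets of Psap disagreed. Gm2a, the activator protein for ganglioside breakdown, changed by 0.60 ± 0.23 (adjusted p = 0.14). Changes of the sterol carrier Npc2 (0.05), of lysosomal acid lipase Lipa (-0.29) and of acid ceramidase Asah1 (-0.23) did not pass either.

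Neither acid phosphatase passed. Acp5, the tartrate-resistant acid phosphatase of osteoclasts and activated macrophages, read 67.0, 69.7 and 74.6 on the saline arrays, 129, 137 and 101 on the OVA arrays and 44.3, 86.1 and 90.6 on the agonist arrays. Its OVA arrays were higher than all others, at 0.78 ± 0.27 log2 units (limma, adjusted p = 0.103), while the lysosomal acid phosphatase Acp2 changed by 0.05. Of the proton pump, 0 of 4 probe sets passed (limma, 0 with an unadjusted p under 0.05). Atp6v1a, the catalytic subunit of the pump's cytosolic part, changed by -0.11, -0.07 and -0.02 log2 units, the last with a 95% interval of -0.21 to 0.16. Atp6ap1, an accessory subunit, changed by -0.03 (95% interval -0.20 to 0.15). These intervals bound the changes and do not show that the levels were equal.

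Lgals3 encodes galectin 3, a β-galactoside-binding lectin that is abundant in macrophages and gathers on damaged lysosomes. It read 323, 355 and 330.2 on the saline arrays, 926, 919 and 803 on the OVA arrays and 526, 432 and 715 on the agonist arrays, and rose by 1.39 ± 0.18 log2 units, 2.62-fold (limma, adjusted p = 0.00965). The 3 groups did not overlap, and agonist array 3 lay closest to OVA. Grn, encoding the lysosomal and secreted growth factor progranulin, gave changes of 0.38 and -0.25 in its probe sets (limma, adjusted p = 0.0644 and 0.609).

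**Figure D3:**
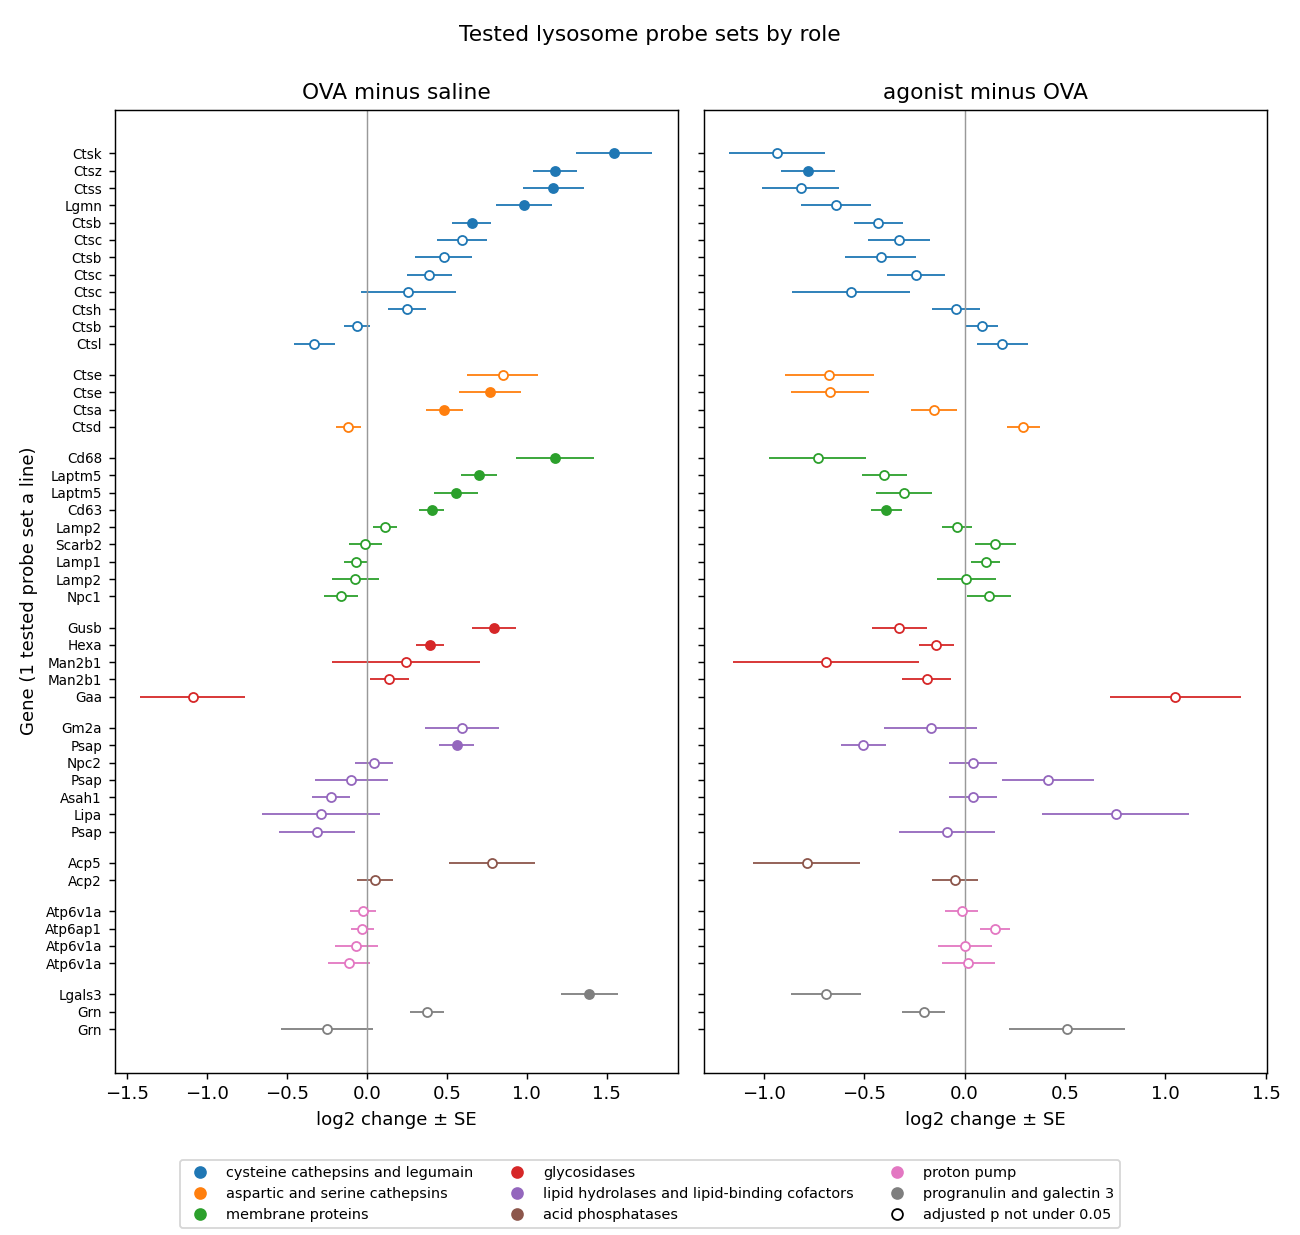
Log2 change ± SE of the 46 tested probe sets, ordered by role, for OVA minus saline (left) and agonist minus OVA (right); x axes in log2 units, filled points have an adjusted p under 0.05. On the left 15 filled points lie to the right of 0 and on the right 2 lie to the left of it.

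Other lysosomal genes were taken from lists by function. With the brightest probe set per gene, 13 of 33 member genes rose. Of 14 tested hydrolases and proteases outside the group 0 passed (limma, 2 with an unadjusted p under 0.05), with Hyal2, a hyaluronidase, at -0.62 and Ctsf, cathepsin F, at -0.49 log2 units. Of 11 membrane and transport proteins 1 rose. This was Slc11a1, a metal transporter of phagosomes in macrophages, with a mean of 50.1 ± 12.4 (SD, n = 3) on saline and 144 ± 16.7 (SD, n = 3) on OVA arrays, or 2.93-fold (limma, adjusted p = 0.00981). Without passing, the membrane protein genes Laptm4a and Laptm4b were lower on all OVA than on all saline arrays, at -0.27 and -0.32 log2 units. Of 12 further vacuolar ATPase subunits 0 passed (limma, 2 with an unadjusted p under 0.05), and the nearest were Atp6v0d1 at 0.30 and Atp6v0a1 at -0.32. Tcirg1, a membrane subunit of the pump in osteoclasts, had a change of 2.96 log2 units that did not pass (adjusted p = 0.1), from saline arrays of which 1 lay above the limit. These 3 lists together had a median of 0.04 log2 units, with 1 of 37 genes risen and 0 fallen. Whether they differ from the members was not tested, since the members were listed with results known.

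Of 10 tested genes of sorting receptors, adaptor subunits and E-box-binding transcription factors 0 passed (limma, 1 with an unadjusted p under 0.05). Mitf was the TFEB-family gene tested, and Tfeb was not above the detection limit on any array. Mitf read 23.4, 21.7 and -22.9 on saline arrays, all under the limit, and 39.2, 54.8 and 59.7 on OVA arrays. Its change of 2.12 ± 0.76 log2 units did not pass (limma, adjusted p = 0.115) and leans on saline array 3, which lay below the floor. Endogenous inhibitors of cathepsins and related proteases gave 2 of 6 that rose. Cstb, encoding cystatin B, an intracellular inhibitor of cysteine cathepsins, read 993, 979 and 861 on saline and 1401, 1726 and 1414 on OVA arrays, or 1.60-fold (limma, adjusted p = 0.02). Slpi, a secreted inhibitor of leukocyte serine proteases, read 522, 636 and 559 on saline and 813, 985 and 1094 on OVA arrays, or 1.68-fold (limma, adjusted p = 0.0278). Saline and OVA arrays did not overlap for either inhibitor. In the comparison of agonist with OVA, 0 genes passed in each of these 5 lists (limma).

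**Figure D4:**
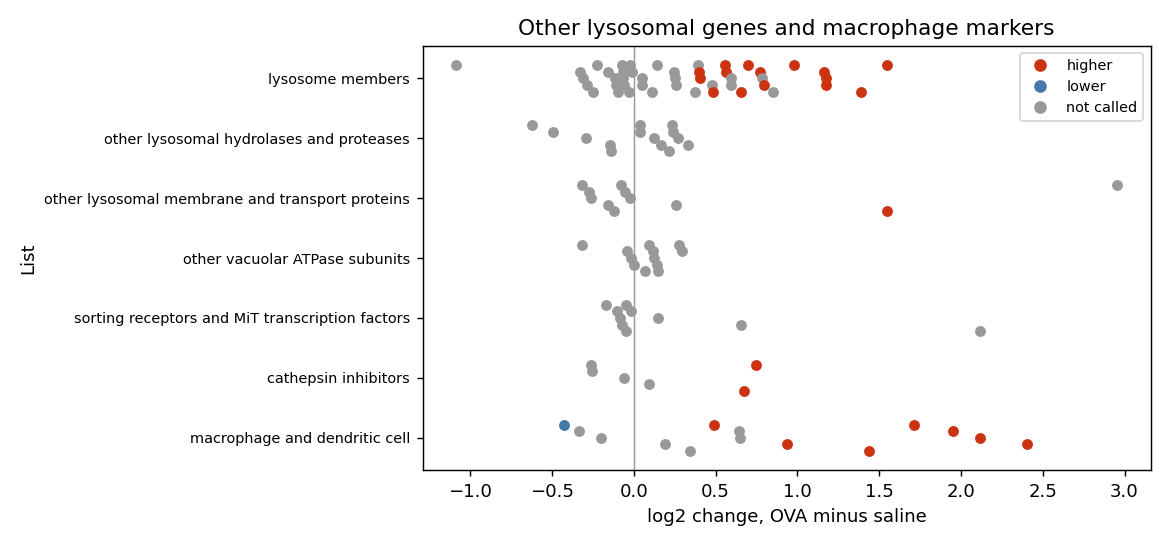
Log2 change between OVA and saline arrays (x axis, log2 units) of the 46 member probe sets, of other lysosomal genes by list and of macrophage and dendritic cell markers (1 point a gene there, at its brightest probe set). Red and blue points passed as higher or lower, and grey points did not pass. Red marks 15 member points, and 1 of 37 among the other hydrolases, membrane proteins and vacuolar ATPase subunits. These counts are of probe sets and of genes, the members were listed with results known, and the difference was not tested.

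Part of the macrophage and dendritic cell markers moved with the members. Of 18 such genes on the array 14 were tested. Of these, 7 rose after OVA and 1 fell (Lyz2, -0.43 log2 units). Without passing, the Fc receptor genes Fcgr1 and Fcgr3 had lower means on OVA than on saline arrays (228 against 273, and 104 against 112). C1qb, C1qa and C1qc, the chains of the complement component C1q made by macrophages, rose 5.29-, 4.33- and 3.87-fold, and Chil3, a chitinase-like protein of alternatively activated macrophages, 3.28-fold (limma, adjusted p = 0.00854, 0.00854, 0.0115 and 0.0187). The summed intensity of the 18 genes was 10070 to 11045 on saline arrays, 15970 to 17002 on OVA arrays, and 11873, 12206 and 15980 on agonist arrays 1 to 3. Negative values were left out of this and all later sums. Chil3 and Lyz2 made up most of the sum of the 18 genes. Chil3 read 2290, 2184 and 4871 on agonist arrays 1 to 3, against means of 1709 on saline and 5617 on OVA arrays. Lyz2 had means of 5587, 4163 and 6168 on saline, OVA and agonist arrays. Adgre1, Itgam, Marco and Aif1 were not above the limit on any saline array, and Marco and Aif1 on no OVA array. Their part in the members' rise was not tested, and in whole lung more cells of a type and more RNA per cell cannot be told apart. Of 6 osteoclast-type markers on the array, Ctsk and Acp5 are members, and without them the sum of the list did not separate the groups. The other 4 (Mmp9, Nfatc1, Tcirg1 and Calcr) summed to 272, 183 and 119 on saline arrays and 271, 249 and 248 on OVA arrays. On agonist arrays they summed to 357, 193 and 303. Mmp9, a matrix protease, changed by -0.16 log2 units after OVA and the transcription factor gene Nfatc1 by 0.01, neither passing. Tcirg1 was higher on all OVA arrays, at 139.9, 91.8 and 68.9, than on saline (at most 61.2) and agonist arrays (at most 34.3). Its change of 2.96 log2 units after OVA did not pass either. The calcitonin receptor gene Calcr was not above the limit on any array. Of 6 eosinophil markers on the array, Epx, Prg2, Prg3 and Il5ra were not above the limit on any array, and Ccr3 was on 1 OVA array. The sixth, Alox15, a lipoxygenase gene that alternatively activated macrophages express too, was above the limit on the 3 OVA arrays only, at 213, 273 and 106, or at least 4.10-fold higher than on saline and on agonist arrays (limma, adjusted p = 0.000106 and 8e-05). Its saline and agonist values lay below the floor used for the test, so these p-values leave out the spread of those groups.

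Some markers of other cells in the tissue went the other way. All 5 markers of alveolar type 2 and club cells and all 4 of alveolar type 1 cells on the array were above the limit in every group. After OVA, 2 of the 5 fell, Cyp2f2, a cytochrome P450 of club cells, by 0.97 and Sftpb, a surfactant protein, by 0.49 log2 units (limma, adjusted p = 0.0115 and 0.0371). So did 3 of 4 alveolar type 1, 5 of 8 endothelial and 4 of 6 heart muscle markers, and 0 rose in these 4 lists (limma). The lists were not uniform. Without passing, the surfactant protein gene Sftpd and the alveolar type 1 marker Pdpn were higher on all OVA than on all saline arrays, at 0.81 and 0.32 log2 units. The endothelial marker Vwf was too, at 1016, 1086 and 1431 on saline and 1622, 1616 and 1448 on OVA arrays. The alveolar type 1 sum was 12404 to 13489 on saline, 9334 to 10157 on OVA and 12170.0 to 13357 on agonist arrays, and the endothelial sum 7840.0 to 7850.5, 6198 to 6531 and 7406 to 8127. With agonist, 1 of 5, 1 of 4, 2 of 8 and 1 of 6 markers of these lists were higher than with OVA, and 0 lower (limma). Goblet cell markers rose after OVA in 4 of 4 tested genes. Jchain, a plasma cell gene, rose 8.66-fold (limma, adjusted p = 0.0261), while the other 3 tested B and plasma cell markers did not pass. The part of all these shifts in the members' changes was not tested.

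After the EP3 agonist, Ctsz and Cd63 were the members that fell relative to OVA alone. The agonist group's mean lay between those of OVA and saline for 15 of the 15 member probe sets that rose after OVA. Over all 402 probe sets that rose after OVA, it did so for 88.8%, and such probe sets are picked for high values on the OVA arrays. Ctsz fell by 0.78 ± 0.14 log2 units, 1.72-fold (limma, adjusted p = 0.0398), and Cd63 fell by 0.39 ± 0.08, 1.31-fold (limma, adjusted p = 0.0491). For both, every agonist array lay below every OVA array. Of the 46 probe sets 2 fell, 0 rose and 17 had an unadjusted p under 0.05, where 1.50% of all tested probe sets fell and 1.25% rose. The members' median was -0.16 log2 units, against 0.06 over all. Groups did not overlap for 15 members lower and 6 higher with agonist, against 12% and 17.8% of all tested probe sets. This comparison and that of OVA with saline share the OVA arrays, so their changes are not independent of each other.

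Agonist arrays differed among themselves in the members that rose after OVA. Their median log2 distance above the saline mean was 0.20 on agonist array 1, 0.22 on array 2 and 0.50 on array 3, and array 3 was the highest of the 3 in 12 of 15 probe sets (80.0%). Over all 402 probe sets that rose after OVA, these medians were 0.12, 0.14 and 0.49, and array 3 was the highest in 73.9%. Arrays 1, 2 and 3 lay below all OVA arrays in 14, 15 and 12 of the 15 member probe sets, against 94.5%, 96.8% and 85.6% of the 402, and above all saline arrays in 11, 13 and 13, against 49.0%, 54.7% and 84.6%. Since the probe sets were picked on these OVA and saline arrays, the counts are a description. The macrophage and dendritic cell sum was also highest on array 3. Summed goblet cell markers were 375, 909.6 and 5823 on agonist arrays 1 to 3, against 139 to 188 on saline and 6459 to 7812 on OVA arrays. Clca1 made up most of this goblet sum, at 257, 645 and 5194 on agonist arrays 1 to 3. Summed neutrophil markers were 4903, 1502 and 4494 on the agonist arrays, and at most 1477 on the others. Most of it on arrays 1 and 3 was S100a8 (2281, 287 and 2026 on arrays 1 to 3) and S100a9 (1542, 128 and 1180.5). Ly6g, Ngp, Mpo and Mmp8 were not above the limit on any agonist array, and 0 neutrophil markers passed in any comparison (limma). The part of these markers in the members' values was not tested.

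Each array was left out in turn. Agonist array 3 is the highest agonist array for most of these members, so leaving it out moves the agonist mean away from OVA, and the values without it are a description. Without it, 8 member probe sets from 7 genes were below the threshold and lower than OVA, where 3.80% of all tested probe sets were. They were those of Ctss (-1.05 log2 units), Cd68 (-0.98), Ctsz (-0.91), Lgals3 (-0.89), Psap (-0.60), Ctsb (-0.53) and Laptm5 (-0.47 and -0.50). Cd63 then missed the threshold, at -0.37 log2 units (adjusted p = 0.0613). Without any 1 of the other 8 arrays, 0 members passed, except without OVA array 3, when Ctse was lower. Ctsz thus passed with all arrays and without agonist array 3, and Cd63 under none of the 9 omissions.

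Against saline, 0 of the 46 probe sets passed on the agonist arrays (limma, lowest adjusted p = 0.409, 7 with an unadjusted p under 0.05), and 0.0758% of all tested probe sets passed. The members' median was 0.13 log2 units, against -0.00 over all. Groups did not overlap for 14 members, all higher with agonist than with saline, where 6.65% of all tested probe sets were higher and 7.03% lower in this way. Lgals3 was among them (intervals here are not adjusted for the number of tests), at 0.70 ± 0.18 log2 units (95% interval 0.29 to 1.11), as was Ctsz, at 0.40 ± 0.14 (95% interval 0.08 to 0.71). For Ctss the change was 0.35 ± 0.19 (95% interval -0.10 to 0.79) and for Cd63 0.02 ± 0.08 (95% interval -0.16 to 0.20). For the 15 probe sets that rose after OVA, the median was 0.33 log2 units above saline with agonist and 0.77 without it. A p that misses the threshold does not show that agonist and saline lungs were alike in these genes.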

How the data were processed

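The authors deposited 1 intensity per probe set and array on a linear scale, some below 0; the scanner software and the summarization are not stated in the labels. Each array was multiplied to the mean of the 9 trimmed means (2% trimmed at each end, 138.7 to 241.2 as deposited, factors 0.741 to 1.29). Scaled values below 3.10, the 20th percentile, were raised to it before log2. Probe sets with at least 3 arrays above 44.7, the 40th percentile, were tested (7920 of 12488, from which 66 controls were left out first), and 59.6% to 60.6% of probe sets lay above it on each array. Groups of 3 arrays limit the precision. The 3 groups were compared in 1 fit of all arrays by limma's lmFit and eBayes (limma 3.58.1 under R 4.3.3), two-sided, with Benjamini-Hochberg adjustment over all tested probe sets at 0.05, in a procedure tested on simulated data. A fold is the antilog of a log2 change. Levels of different probe sets were not compared by a test, but were added in the sums over lists, where bright probe sets weigh most. Genes were named from the array's probe annotation, and promoters matched by symbol to RefSeq (GRCm38.p6). Members, gene lists and tests were chosen with earlier results of these data known. Values on each array are given for the probe sets of members that passed in any comparison, and changes for the others. Of other lists, the rule named up to 4 genes each, passing ones ahead, and not all of these are given. Further genes of these lists are given outside the rule, among them Lyz2, Fcgr1, Fcgr3, Nfatc1, Vwf, S100a8 and S100a9. Acp5, Gaa and Ctsd are given by array although they did not pass, and were picked after their values were seen. Alternatives were other scalings, floors, filters and priors, the replicate number as a block, the compared arrays alone and each array left out.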

Additional observations from a re-analysis of the deposited data

How the results depend on the processing

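The 15 members higher in OVA than in saline were 12 to 18 under 2 other scalings (quantile normalization, equal array medians), a higher floor (40th percentile) or none, a stricter filter (60th percentile) or none, a robust prior with an intensity trend, and a fit of the 6 compared arrays alone. With the replicate number as a block 1 passed (Ctsz, adjusted p = 0.044), with 50 in place of 752 probe sets over the array. The labels do not say whether equal numbers in the titles pair the samples. Deviations from the group means correlated between -0.139 and 0.1695 for same-numbered arrays, and between -0.154 and 0.149 for others. Between saline and OVA the same-numbered values were 0.1695, 0.1115 and 0.0354, and the others ran from -0.154 to 0.0438. These values do not decide whether the samples are paired, and the block is given as an alternative. Leaving out 1 array at a time gave 2 to 15 members and 104 to 857 probe sets. For agonist against OVA, the 2 members became 4 with the floor at the 40th percentile, 6 with the filter at the 60th, 7 with the trend (6 lower, and Ctsd higher with agonist), 0 with the block, 0 with the 6 arrays alone, and 0 to 8 with 1 array left out. Over the array the 218 became 361, 445, 453, 14, 18 and 12 to 517 in the same order. With quantile normalization or equal medians Ctsz and Psap passed, not Cd63. For agonist against saline, 6 probe sets became 3 with the filter at the 60th percentile, 2 with the block and 4 to 16 with 1 array left out, and the members stayed at 0. The cause of these differences was not tested. Changes that reversed had not passed, and leaving out 1 array at a time gave these ranges of log2 change. In OVA minus saline Psap 161476_at ran from -0.354 to 0.0439 (without OVA array 1), with 0.0185 without OVA array 2. In agonist minus OVA Psap 97560_at ran from -0.330 to 0.0927 (without OVA array 3). In agonist minus saline Ctsb 95608_at ran from -0.0497 (without agonist array 2) to 0.232, Ctse 93860_i_at from -0.0114 (without agonist array 1) to 0.183, and Psap 97114_at from -0.0415 (without agonist array 3) to 0.127. Cd63 there ran from -0.0150 (without agonist array 2) to 0.0389, with -0.00393 without saline array 2.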
